A study of Mus musculus with 18 samples.

Results

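The genes described here are the mouse drug metabolism enzymes of the cytochrome P450 subfamilies Cyp2 and Cyp3a, the UDP-glucuronosyltransferases (Ugt), the cytosolic glutathione S-transferases (Gst) and the sulfotransferases (Sult). They were taken by symbol from a table of kidney gene expression, and 112 of its 19518 genes matched. Cyp2 gave 47 members, Cyp3a 8, Ugt 21, Gst 22 and Sult 14. A gene was tested when its deposited signal, a normalized expression value without a stated unit, reached 1 in at least 3 libraries. That left 50 members, of which 16 were Cyp2, 12 Ugt, 17 Gst and 5 Sult, and no Cyp3a member. Of the other 62 members, 54 never reached 1 and 4 (Cyp2c39, Cyp3a44, Sult3a1 and Sult3a2) were listed at 0 throughout.

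These families handle drugs, dietary compounds and the body's own lipids and hormones. P450 enzymes of the endoplasmic reticulum oxidize a substrate with electrons from Por (phase I). Most Ugt enzymes then attach glucuronic acid, Gst enzymes glutathione and Sult enzymes sulfate (phase II), and transporters carry the conjugates into bile or urine. The liver is the main site, but the proximal tubule of the kidney carries its own set, and in mice several of these genes are known for strong differences between the sexes.

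The libraries came from kidneys of ICR mice aged 10 weeks, in 6 groups of 3. The groups were control, AOS (10 mg/kg, an agent that the labels give only by these letters), high fat diet (HFD), HFD with AOS at 10 mg/kg (HFD+AOS), and HFD followed in the labels by an AOS 10 mg/kg FMT (HFD+AOS-FMT) or by a control FMT (HFD+control-FMT). The series' design text names as its question what FMT does in kidneys damaged by the diet. The labels do not give sex, the length of the diet or the FMT procedure, nor whether each library of a group is a different mouse. The p-values below therefore reflect the variation among these 18 libraries, part or all of which may be technical.

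Control replicate 3 stood apart from the other libraries. Across genes its log2 values correlated with theirs at Pearson's r of 0.948 to 0.963, against 0.979 to 0.993 among the other 17. Its 10 proximal tubule markers summed to 18930, against 119024 to 169627 elsewhere. Most of each sum was Kap, at 15798 there and at 113327 to 164490 elsewhere. The other 9 summed to 3132 against 4226 to 5697, with 6 of them lowest there and 1, Slc5a12, highest. Its 8 adrenal gland markers summed to 922 against 0.81 to 2.31, with 8 of 8 highest there. Its 5 podocyte markers summed to 102 against 28.5 to 68.5, with 5 of 5 highest there, and its 5 collecting duct markers to 377 against 110 to 248, with 4 of 5 highest. Transcripts of testis germ cells (Prm1, Prm2, Tnp1 and Tnp2) summed to 24.8 to 37.1 in all 3 control libraries and in HFD replicates 1 and 2, and to at most 0.3 in the other 13. Below, germ cell transcripts means these 4. Smcp, another of the 10 listed germ cell markers, was at 11.7 to 33.6 across all 18 libraries. All 10 together summed to 56.7 to 63.4 in control and in HFD replicates 1 and 2, and to 11.9 to 27.2 in the other 13. The part of all these markers in the results below was not tested, and values without control replicate 3 are given where they move a result. In whole kidney, fewer cells of a type and less RNA per cell cannot be told apart.

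Among the Cyp2 genes, a few members made up nearly all of the signal. Cyp2e1, which oxidizes ethanol and other small molecules, gave 49.7% of the family's summed signal, and with Cyp2j5, Cyp2a4 and Cyp2j13 it gave 90.3%. Cyp2e1 was at 1485 to 2063 in 17 libraries (median 1692), Cyp2j5, an epoxygenase of arachidonic acid, at 640 to 873 (median 769), Cyp2a4, a steroid hydroxylase, at 247 to 523 (median 428), and Cyp2j13 at 185 to 280 (median 232). The 15 Cyp2c genes, abundant in liver, summed to 3.09 ± 2.69 (SD over 18 libraries), and Cyp2c23 was the tested one. The Cyp3a genes, which metabolize many drugs in liver and gut, were nearly absent: all 8 together summed to 0.14 to 1.05 per library. Cyp3a13 was the highest of them with a mean of 0.228, followed by Cyp3a11 at 0.117, Cyp3a25 at 0.0389 and Cyp3a57 at 0.0211.

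The conjugating families were likewise led by a few genes. Ugt2b38 ranged from 973 to 1517 in the 17 libraries (median 1272), Ugt3a2 from 709 to 870 (median 767), Ugt3a1 from 187 to 270 (median 224) and Ugt2b37 from 72.9 to 223 (median 160). Ugt3 enzymes use sugar donors other than UDP-glucuronic acid. Within Gst, the pi class gene Gstp1 was at 405 to 880 (median 660), the mu class genes Gstm1 at 232 to 605 (median 486) and Gstm5 at 159 to 190 (median 175), and Gstz1, the zeta class enzyme of tyrosine breakdown, at 228 to 304 (median 271). The Sult family was almost wholly 2 genes, Sult1d1 (217 to 328, median 257) and Sult1c2 (130 to 210, median 159). Sult1a1, the phenol sulfotransferase, was at 7.49 to 14.5 and Sult1b1 at 1.99 to 4.

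**Figure D1:**
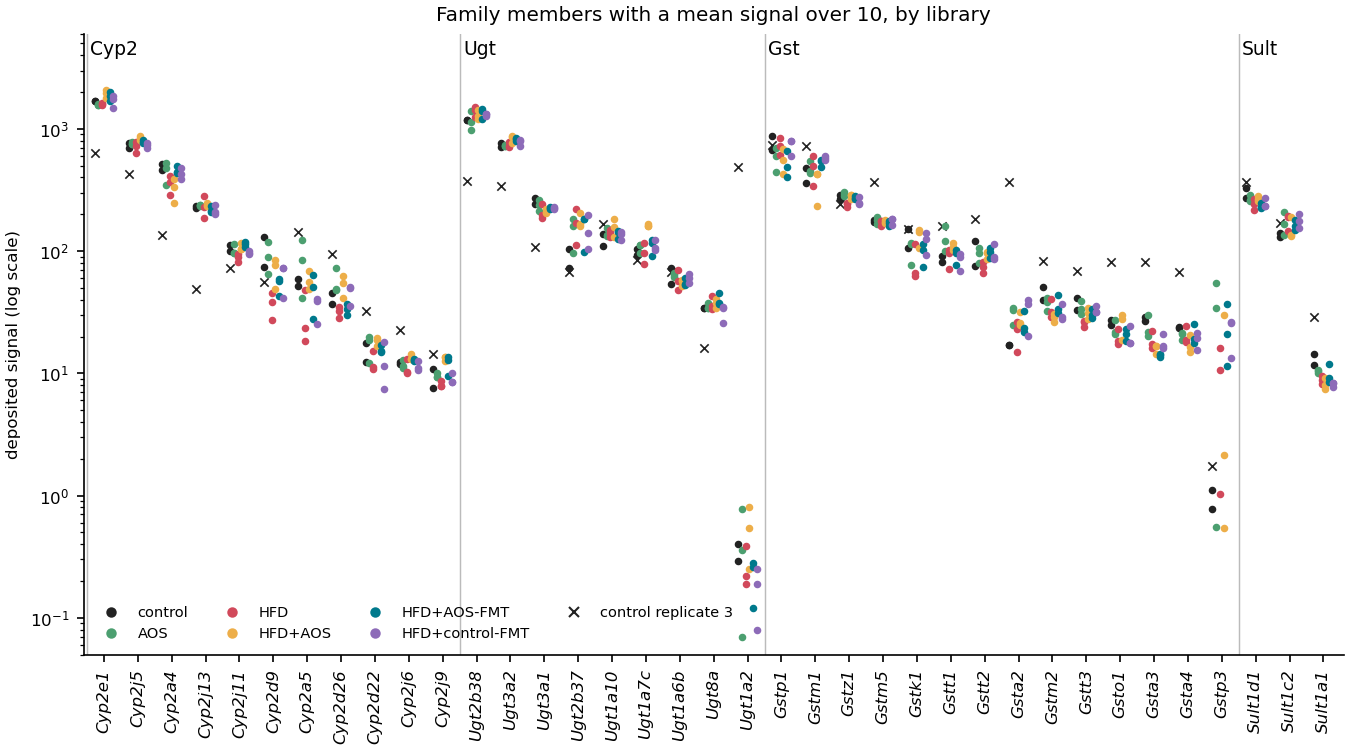
Deposited signal on a log scale (y axis) of the members with a mean over 10 (x axis, by family), 1 point per library, coloured by group, with crosses for control replicate 3. The crosses for Cyp2e1, Cyp2j13 and Ugt2b38 lie below all other points, those for Ugt1a2 and Gsta2 far above them, and Gstp3 runs from 0.54 to 54.5 with low values in several groups.

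In control replicate 3 the most abundant Cyp2 members and several abundant Ugt members were low, and other members were high. Of the 50 tested members 24 had their highest value there and 12 their lowest, against 49.9% and 9.47% of all tested genes. Cyp2e1 stood at 636, Cyp2j5 at 429, Cyp2a4 at 135, Cyp2j13 at 48.9, Ugt2b38 at 377, Ugt3a2 at 344 and Ugt3a1 at 108, all below the range of the other 17. Ugt1a2 stood at 486 there and at 0.07 to 0.81 in the other 17. Gsta2, an alpha class enzyme that also acts on lipid peroxides, stood at 368 against 15.0 to 40.1. Of the abundant Gst genes, Gstm1 stood at 719 against 232 to 605, and Gstp1 at 738 lay within its range of 405 to 880. Summed over each family, Cyp2 was at 1723 there against 3070 to 3756, and Ugt at 1765 against 2460 to 3105. The Gst sum was 3358 against 1609 to 2373, and the Sult sum 577 against 375 to 485.

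Smaller amounts of other members appeared in the same library. Gsta1 was at 14.4 (at most 0.66 elsewhere), Cyp2c23 at 11.7 (0.47 to 2.15), Ugt2b34 at 11.5 (1.10 to 3.80), Ugt1a1, the bilirubin glucuronosyltransferase, at 9.83 (0.19 to 0.68) and Cyp2f2 at 7.07 (0.24 to 1.27). With Ugt1a2 and Gsta2, these 7 genes were the members that in 1 library reached over 5 times their median and a value of at least 1, and that library was control replicate 3 for each. The adrenal markers that are high in the same library are given above, and their part in these values was not tested. Of the sequence windows of Gsta1 (defined with the processing below), 89.7% occur in another gene, 82.9% in Gm3776 and 44.6% in Gsta2. Of those of Gsta2, 64.2% occur in another gene, 44.8% in Gsta1. Reads could be shared, and whether Gsta1 rose separately from Gsta2 was not tested.

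**Figure D2:**
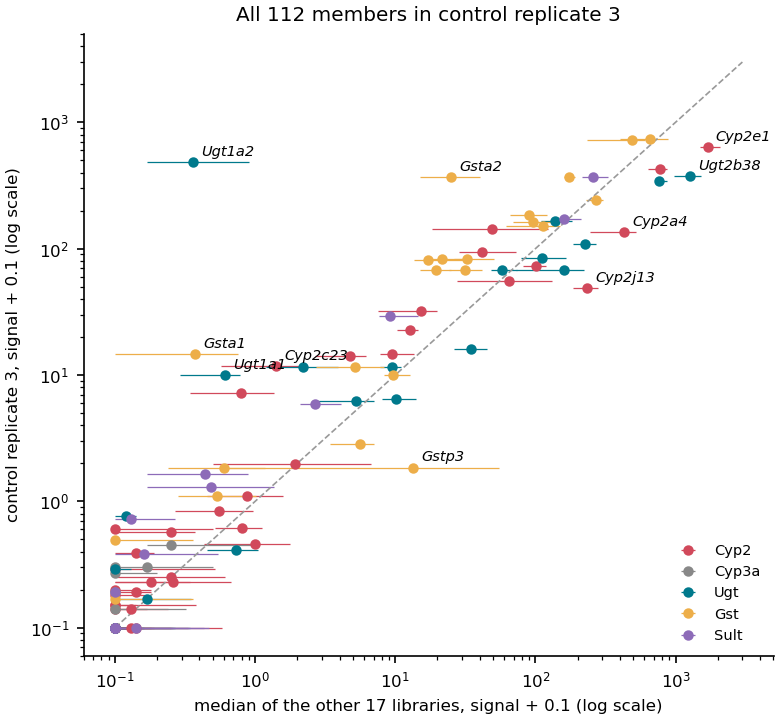
Signal plus 0.1 in control replicate 3 (y axis, log scale) against the median of the other 17 libraries (x axis, log scale) for all 112 members, with horizontal lines from the lowest to the highest of the 17 and a dashed line of equality. Ugt1a2, Gsta2, Gsta1 and Ugt1a1 lie far above the line, and Cyp2e1, Ugt2b38, Cyp2a4 and Cyp2j13 below it.

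Few members passed the test in any comparison. The test was limma's moderated test on log2(signal + 1) with Benjamini-Hochberg adjustment over 12030 genes and a threshold of 0.05, and differences below are on that scale, which understates changes of low genes. Over the 6 groups, the F test called 1 of 50 members, Ugt1a7c (adjusted p = 0.0487), against 1.02% of all genes. For HFD+AOS against HFD it called 1, Ugt1a7c, which rose (all genes 0.823%). For HFD+AOS-FMT against control it called 2, Gsta3 and Sult1d1, which fell (all genes 2.32%). These shares of 2% and 4% rest on 1 and 2 genes.

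The other comparisons called no member. For HFD against control, limma called 0 of 50 members (all genes 0%), and 22 members (44%) had an unadjusted p under 0.05, 19 of them lower, against 17.4% of all genes. Lower values were common there, since only 26.9% of all tested genes were higher in HFD at any p. Unadjusted counts were 11 (22%) for AOS against control, against 12.7% of all genes, of which 0.0333% were called. They were 5 (10%) for HFD+AOS-FMT against HFD, with backgrounds of 13.3% and 0.175%, and 3 (6%) for HFD+control-FMT against HFD, with backgrounds of 4.5% and 0%. The count was 2 (4%) for HFD+AOS-FMT against HFD+control-FMT, with backgrounds of 7.02% and 0%. It was 3 (6%) for HFD+AOS against AOS, with backgrounds of 11.1% and 0%. The test of whether the AOS difference depended on the diet gave 9 (18%), all higher on HFD, with backgrounds of 12.4% and 0%. At any p, 68.4% of all tested genes were higher in that test. Comparisons that use the same HFD or control libraries are not independent of each other.

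Counts of members whose 3 libraries lay wholly above or below the 3 of the other group were read against the same share of all genes. For HFD against control 14 of 50 were apart (all genes 15.7%), 3 higher and 11 lower, and without control replicate 3 20 were (23%). Of all tested genes, apart or not, 26.9% were higher in HFD. The 11 included Cyp2a5 and Cyp2d9, Gsta3, Gstt3, Gsto1 and Gstm7, and Sult1a1 and Sult1d1. The counts were 3 for AOS against control (13.2%), and 8 without that library (26.2%). For HFD+AOS against HFD 19 were apart (28.2%), of which 18 were higher and 10 of those were Cyp2 genes, and the lower one was Cyp2f2. Of all tested genes, apart or not, 53.1% were higher in HFD+AOS. The count was 12 for HFD+AOS-FMT against HFD (25.2%), for HFD+control-FMT against HFD 7 (15.4%), for HFD+AOS-FMT against HFD+control-FMT 5 (18%) and for HFD+AOS against AOS 12 (24.2%). Between HFD+AOS-FMT and control it was 11 (16%), and 21 without control replicate 3 (33.4%). For HFD+AOS against HFD, 10 members (20%) had an unadjusted p under 0.05, all higher, against 15.1% of all genes. The count was 21 (42%, all genes 19%) between HFD+AOS-FMT and control, and 15 (30%, all genes 17.7%) for the F test.

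The number of called members depended on which libraries entered the fit and how they were weighted. Leaving out a control library changes the control mean as well as the common spread. Without control replicate 3, 8 members rose in HFD+AOS over HFD: Cyp2d26, Cyp2e1, Cyp2j5, Cyp2j9, Cyp2j11, Gstz1, Ugt1a7c and Ugt1a9 (all genes 6.72%). In HFD+AOS-FMT 3 rose over HFD, Cyp2j9, Cyp2j11 and Cyp2s1 (4.86%), for HFD+AOS against AOS 1, Ugt1a7c (1.31%), and for HFD+AOS-FMT against control 1 fell, Gsta3 (4.35%). The F test then called 4, Cyp2j9, Gsta3, Sult1a1 and Ugt1a7c (6.33%). With libraries weighted by their quality these counts were 4 (7.84%), 4 (5.33%), 1 (2.29%), 2 (4.29%) and, for the F test, 7 (8.05%), and the 2 were Cyp2j9, which rose, and Gsta3, which fell. With only the 2 groups compared in the fit, HFD+AOS against HFD gave 4 (2.61%). Without control replicate 2, 3 members fell in HFD against control, Cyp2j9, Sult1a1 and Sult1d1 (1.8%), 5 were called between HFD+AOS-FMT and control (6.53%), and 4 by the F test (2.2%).

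Family medians, which are descriptions with no test, varied with the comparison. For HFD against control, the median log2 difference was -0.50 for Cyp2, 0.10 for Ugt, -0.66 for Gst and -0.39 for Sult, beside -0.10 for all tested genes. Without control replicate 3 these became -0.25, 0.06, -0.20 and -0.24, beside -0.02. For HFD+AOS against HFD, the medians were 0.30, 0.14, 0.03 and -0.10, beside 0.01, with 13 of 16 Cyp2 members higher. Between HFD+AOS-FMT and HFD they were 0.33, 0.10, 0.13 and -0.04, beside 0.05, again with 13 of 16 Cyp2 members higher. For HFD+control-FMT against HFD they were 0.12, 0.06, 0.09 and 0.01, beside 0.01, and 13 of 16 Cyp2 members were higher. These 3 comparisons share the HFD libraries, and 53.1%, 62.4% and 53.7% of all tested genes were higher in them, in this order. For AOS against control the medians were 0.08, 0.27, -0.34 and -0.25, beside -0.09, and 0.05, 0.05, -0.03 and 0.07 without control replicate 3, beside -0.01. Between HFD+AOS-FMT and control they were -0.23, 0.26, -0.49 and -0.27, beside -0.06, and 0.07, 0.17, -0.06 and -0.05 without that library, beside 0.02. Directly between HFD+AOS-FMT and HFD+control-FMT the medians were 0.09, 0.05, 0.001 and -0.07, beside 0.04, with 12 of 16 Cyp2 members higher (all genes 61.9%). For HFD+AOS against AOS they were -0.04, 0.17, -0.14 and -0.16, beside -0.002, with 7 of 16 Cyp2 members higher (all genes 49.5%).

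**Figure D3:**
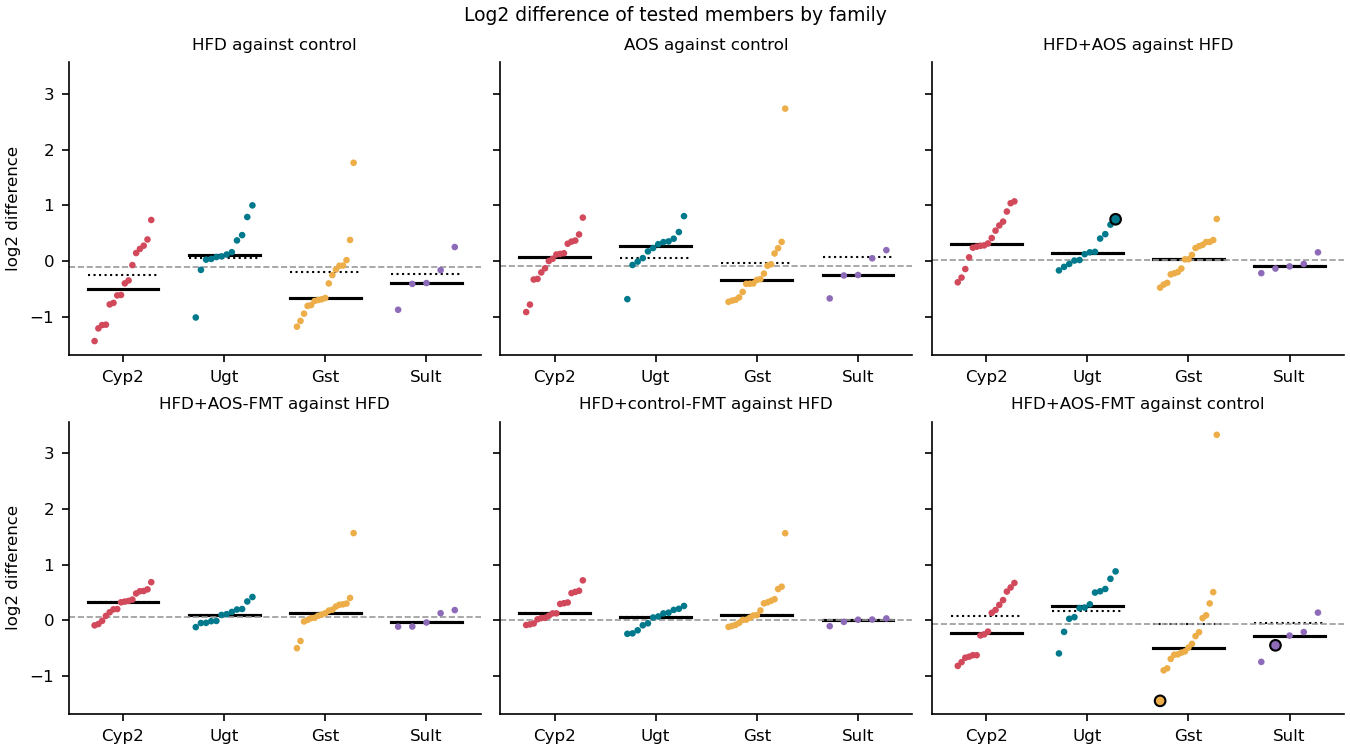
Log2 difference (y axis) of each tested member by family (x axis) in 6 comparisons, with solid bars for family medians, dotted bars for the medians without control replicate 3, and a dashed line for the median of all tested genes. The 3 outlined points are the called members, Ugt1a7c at 0.75 for HFD+AOS against HFD and Gsta3 at -1.45 and Sult1d1 at -0.45 for HFD+AOS-FMT against control.

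The summed Cyp2 signal was 3091 to 3195 in the HFD libraries, 3601 to 3756 in HFD+AOS, 3476 to 3691 in HFD+AOS-FMT and 3070 to 3570 in HFD+control-FMT. The HFD+AOS and HFD+AOS-FMT sums lay above all 3 HFD sums, and those of HFD+control-FMT overlapped with them. In control the sums were 3460, 3532 and 1723 and in AOS they were 3195 to 3590. Cyp2e1 is the largest term of these sums. It was at 1639, 1555 and 1602 in HFD, 2063, 1980 and 1795 in HFD+AOS, 1843, 1692 and 1994 in HFD+AOS-FMT, and 1762, 1485 and 1852 in HFD+control-FMT. HFD+AOS and HFD+AOS-FMT lay above HFD in every library, and HFD+control-FMT did not. The HFD+AOS difference from HFD was 0.28 (SE 0.26) with limma's adjusted p = 0.667. Without control replicate 3, a library of neither group whose low value enters the common spread, the difference was 0.28 with SE 0.08 and adjusted p = 0.0450.

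The Cyp2j genes, epoxygenases of polyunsaturated fatty acids, gave the Cyp2 member closest to the threshold. Cyp2j9 (chr4:96568429-96591578, minus strand, GRCm38) was at 10.8, 7.64 and 14.5 in control, 9.39, 10.2 and 9.39 in AOS, and 8.67, 7.83 and 7.94 in HFD. It was at 12.7, 13.5 and 13.5 in HFD+AOS, 13.5, 9.42 and 12.8 in HFD+AOS-FMT, and 8.44, 10.0 and 8.52 in HFD+control-FMT. The HFD+AOS and HFD+AOS-FMT libraries were all above the HFD libraries, and those of HFD+control-FMT overlapped with HFD.

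For HFD+AOS against HFD the Cyp2j9 difference was 0.64 (SE 0.16, limma adjusted p = 0.0785), and for HFD+AOS-FMT against HFD it was 0.48 (SE 0.16, adjusted p = 0.209). Neither passed. Without control replicate 3 the SE became 0.12 and both passed, with limma's adjusted p = 0.00767 and 0.0353. Against HFD+control-FMT, the HFD+AOS-FMT difference of 0.36 had an adjusted p of 0.704, and 0.213 without that library. Cyp2j9 was also the member with the smallest p in the test of AOS by diet (0.77, SE 0.23, adjusted p = 0.344).

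Cyp2j11 stood beside it with a narrower spread. It was at 89.9, 95.2 and 82.0 in HFD, 103, 103 and 117 in HFD+AOS, 113, 120 and 108 in HFD+AOS-FMT, and 101, 96.2 and 94.2 in HFD+control-FMT. No library of HFD+AOS or HFD+AOS-FMT fell within the HFD range, and HFD+control-FMT lay above it except for 1 library. For HFD+AOS-FMT against HFD its difference was 0.35 (SE 0.12, limma adjusted p = 0.223), and 0.0237 was the adjusted p without control replicate 3. Cyp2j5 was at 782, 719 and 640 in HFD and 873, 836 and 812 in HFD+AOS, groups that did not overlap, with a difference of 0.24 (SE 0.15, adjusted p = 0.495, and 0.0431 without control replicate 3).

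Cyp2d9, a steroid hydroxylase known for higher levels in male mice, varied widely. It was at 130, 74.6 and 55.8 in control, 120, 89.99 and 64.5 in AOS, and 27.4, 38.0 and 45.8 in HFD. The HFD libraries lay below every control and AOS library. It was at 48.9, 84.1 and 76.4 in HFD+AOS, 59.2, 56.8 and 43.0 in HFD+AOS-FMT, and 72.9, 41.5 and 72.1 in HFD+control-FMT, and only the first of these groups lay wholly above HFD. For HFD against control the difference was -1.15 (SE 0.33, limma adjusted p = 0.227, and -1.42 without control replicate 3), and for HFD+control-FMT against HFD it was 0.72 (SE 0.33, adjusted p = 1.00). Of its 50-base windows, 29.0% also occur in another gene, so reads could be shared. Cyp2a5, the coumarin hydroxylase, gave the lowest difference among the tested members for HFD against control, at -1.44 (SE 0.46, adjusted p = 0.234, and -0.98 without control replicate 3), and 40.8% of its windows recur in another gene, 31.0% in Cyp2a4.

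The Ugt1a genes are 1 locus on chromosome 1 (plus strand): each gene has its own first exon, which encodes the part that binds the substrate, spliced to the same 4 exons. The junctions below show why a short read in the common part cannot be assigned. Each line gives the last 30 bases of a first exon in lower case and the first 30 bases of the common exon, which starts at position 88215044 of GRCm38, in capitals, from GENCODE M21 transcripts. Ugt1a6a and Ugt1a6b have the same letters here, as have Ugt1a2 and Ugt1a5.
Ugt1a7c: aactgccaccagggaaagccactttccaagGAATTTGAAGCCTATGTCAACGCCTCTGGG
Ugt1a9: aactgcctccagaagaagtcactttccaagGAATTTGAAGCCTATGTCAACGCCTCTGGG
Ugt1a10: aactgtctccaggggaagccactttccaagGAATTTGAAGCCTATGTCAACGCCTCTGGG
Ugt1a6a and Ugt1a6b: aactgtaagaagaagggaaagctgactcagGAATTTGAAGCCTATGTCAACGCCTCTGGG
Ugt1a1: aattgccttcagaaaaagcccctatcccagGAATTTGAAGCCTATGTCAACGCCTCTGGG
Ugt1a2 and Ugt1a5: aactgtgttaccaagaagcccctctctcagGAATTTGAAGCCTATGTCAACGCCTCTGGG

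Ugt1a7c rose in HFD+AOS. It was at 93.6, 105 and 84.7 in control, 112, 112 and 96.0 in AOS, and 116, 96.2 and 78.5 in HFD. It was at 160, 165 and 160 in HFD+AOS, 91.7, 122 and 117 in HFD+AOS-FMT, and 124, 107 and 102 in HFD+control-FMT. The 3 HFD+AOS libraries lay above all 15 others, which overlapped with one another. The difference from HFD was 0.75 (SE 0.13, 95% interval 0.46 to 1.04, limma adjusted p = 0.0225), higher in 3 of 3 libraries.

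This difference kept its direction, but its size varied and its call was near the threshold. It stayed between 0.61 and 0.89 when any 1 library of the 2 groups was left out, and remained called only without HFD replicate 1 (0.89). Leaving out HFD replicate 2 (0.75) or 3 (0.61), or any of the HFD+AOS replicates (0.76, 0.73 and 0.76), ended the call; in each of these fits a group has 2 libraries whose spread is taken from all groups. With a term for the 5 libraries that hold germ cell transcripts, HFD replicates 1 and 2 among them, it was 1.03 and called. Against AOS alone, Ugt1a7c was 0.60 higher in HFD+AOS (SE 0.13, adjusted p = 0.126, and 0.0403 without control replicate 3). The AOS difference was 0.58 larger on HFD than on the control diet (SE 0.19, adjusted p = 0.366), which did not pass.

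The neighbours of Ugt1a7c in the locus did not all share this pattern. Ugt1a9 was at 8.61, 7.95 and 9.07 in HFD and 13.8, 11.1 and 12.2 in HFD+AOS, groups that did not overlap, with a difference of 0.48 (SE 0.15, limma adjusted p = 0.133, and 0.0356 without control replicate 3). Ugt1a10 was at 149, 130 and 141 in HFD and 183, 159 and 130 in HFD+AOS, which overlapped, with a difference of 0.16 (SE 0.14, adjusted p = 0.651). Ugt1a6b differed by -0.05 (SE 0.12, adjusted p = 0.896). Ugt1a6a differed by -0.17, the lowest value of the 12 tested Ugt members, and was not called. Differences between these genes were not themselves tested.

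How reads of this locus were divided is not given in the sources used here, and the signals of its genes are uncertain in that respect. Of the 50-base windows of Ugt1a7c, 40.9% occur in another gene, against 62.0% for Ugt1a9, 66.2% for Ugt1a10, 78.6% for Ugt1a6b and 97.7% for Ugt1a6a. Of the windows of the first exon of Ugt1a7c (chr1:88095064-88095978, 915 bases), 0.462% occur in Ugt1a9, the closest of the other Ugt1a members by this measure. Ugt1a8 is not among the members and was left out of that first exon count. Over the whole transcript it was the closest gene, with 40.7% of the windows. In GENCODE M21, 1 of 3 protein-coding transcripts filed under Ugt1a7c uses the Ugt1a6a exon, and the last exon of Ugt1a7c runs 998 bases past the end of the other Ugt1a genes.

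**Figure D4:**
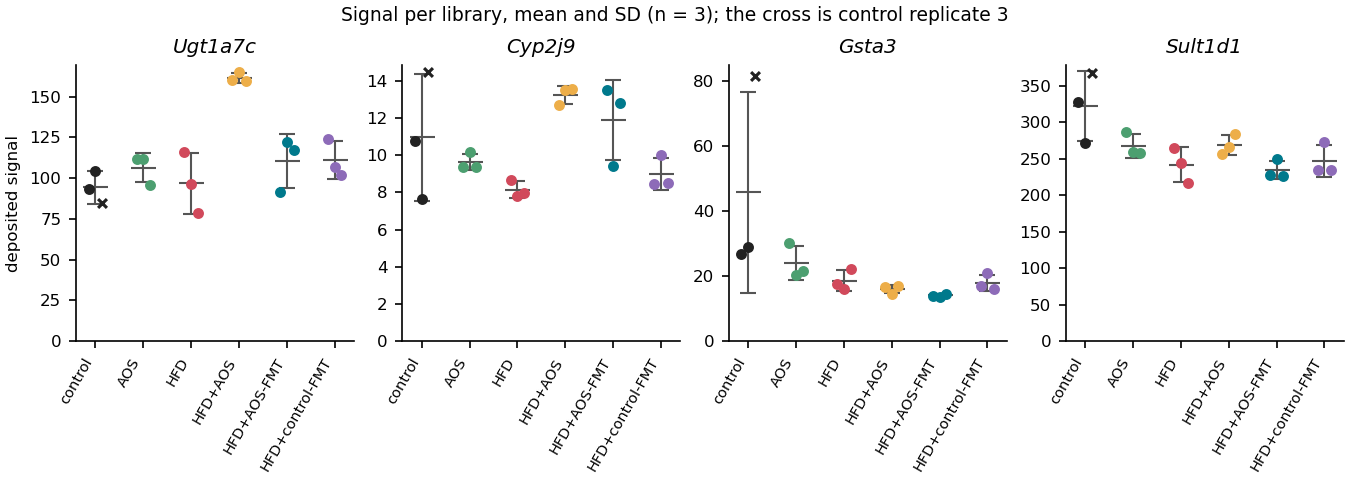
Deposited signal (y axis, from 0) of Ugt1a7c, Cyp2j9, Gsta3 and Sult1d1 in each of the 6 groups (x axis), with points for libraries, a cross for control replicate 3, and bars for the mean and SD (n = 3). Ugt1a7c is highest in the 3 HFD+AOS libraries (160 to 165), and Gsta3 is at 13.6 to 14.5 in the HFD+AOS-FMT libraries, a range that also holds 1 HFD+AOS library (14.5), and above it in the other 14.

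The other abundant Ugt genes did not pass the test. Ugt2b38 was at 1178, 1171 and 377 in control and 1517, 1418 and 1254 in HFD, groups that did not overlap, with a difference of 0.79 (SE 0.31, limma adjusted p = 0.248, and 0.24 with adjusted p = 0.740 without control replicate 3). Ugt2b37 was at 72.9, 105 and 68.1 in control and 113, 168 and 223 in HFD, again apart, with a difference of 1.00 (SE 0.32, adjusted p = 0.234, and 0.88 without control replicate 3). It was at 160, 182 and 96.9 in AOS, which overlapped with control. Of the 50-base windows of Ugt2b38, 37.4% occur in another gene, and of those of Ugt2b37 18.3%.

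Gsta3, an alpha class transferase known in mice for conjugating the epoxide of aflatoxin, fell in HFD+AOS-FMT relative to control. It was at 26.7, 29.1 and 81.4 in control, 30.1, 20.3 and 21.6 in AOS, and 17.5, 16.1 and 22.2 in HFD. It was at 16.8, 14.5 and 16.8 in HFD+AOS, 14.0, 13.6 and 14.5 in HFD+AOS-FMT, and 16.9, 20.8 and 16.2 in HFD+control-FMT. The HFD+AOS-FMT libraries lay below all control, AOS, HFD and HFD+control-FMT libraries, and the 3 control libraries lay above every library fed HFD.

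The Gsta3 difference between HFD+AOS-FMT and control was -1.45 (SE 0.30, 95% interval -2.08 to -0.81, limma adjusted p = 0.0239), lower in 3 of 3 libraries. Without control replicate 3 it was -0.94 (SE 0.15, adjusted p = 0.00507). All 3 control libraries and no HFD+AOS-FMT library hold germ cell transcripts. With a term for those libraries the difference was -1.83 and was not called. It was not called without any 1 of the HFD+AOS-FMT replicates (-1.44, -1.42 and -1.47), fits in which that group has 2 libraries. Nor was it called with only HFD+AOS-FMT and control in the fit. For HFD against control the Gsta3 difference was -1.07 (SE 0.30, adjusted p = 0.227, and -0.57 without control replicate 3), and for HFD+AOS-FMT against HFD+control-FMT it was -0.33 (SE 0.30, adjusted p = 0.856). None of the 50-base windows of Gsta3 occurs in another gene.

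Among the other Gst genes, the theta class gave the smallest p for HFD against control. Gstt3 was at 33.1, 41.5 and 68.2 in control and 23.9, 26.3 and 26.6 in HFD, groups that did not overlap. The difference was -0.80 (SE 0.18, limma adjusted p = 0.137, and -0.52 without control replicate 3, adjusted p = 0.341). Gstz1 was at 246, 228 and 244 in HFD and 267, 287 and 290 in HFD+AOS, with a difference of 0.23 (SE 0.07, adjusted p = 0.146, and 0.0353 without control replicate 3). The kappa class gene Gstk1, a mitochondrial and peroxisomal enzyme, was at 113, 62.0 and 65.8 in HFD and 141, 126 and 92.8 in HFD+control-FMT, which overlapped. Its difference there was 0.60 (SE 0.25, adjusted p = 1.00), and its AOS difference was 1.16 larger on HFD than on the control diet (SE 0.36, adjusted p = 0.361). Gstm2 was 0.55 lower in AOS than in control on that scale (39.9, 50.6 and 83.2 in control, 41.7, 38.3 and 32.5 in AOS, SE 0.21, adjusted p = 0.368). These groups overlapped, and without control replicate 3 the difference was -0.26 (adjusted p = 0.704).

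The 3 pi class genes lie next to each other on chromosome 19 and varied in unlike ways. Gstp1 was at 405, 485 and 660 in HFD+AOS-FMT and 795, 793 and 596 in HFD+control-FMT, which overlapped, with a difference of -0.51 (SE 0.21, limma adjusted p = 0.665). Gstp3, singled out here after its values were seen, was at 1.11, 0.78 and 1.75 in control, 34.5, 0.55 and 54.5 in AOS, and 1.03, 10.7 and 16.01 in HFD. It was at 29.96, 2.15 and 0.54 in HFD+AOS, 36.9, 21.02 and 11.6 in HFD+AOS-FMT, and 13.2, 26.3 and 25.9 in HFD+control-FMT. Values of at most 2.15 occurred in 7 libraries, the 3 control libraries, AOS replicate 2, HFD replicate 1 and HFD+AOS replicates 2 and 3, and the other 11 lay at 10.7 or above. The difference between HFD+AOS-FMT and control was 3.33 (SE 1.24, adjusted p = 0.164), which did not pass. No 50-base window of Gstp3 occurs in another gene, while 62.3% of those of Gstp1 occur in Gstp2.

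**Figure D5:**
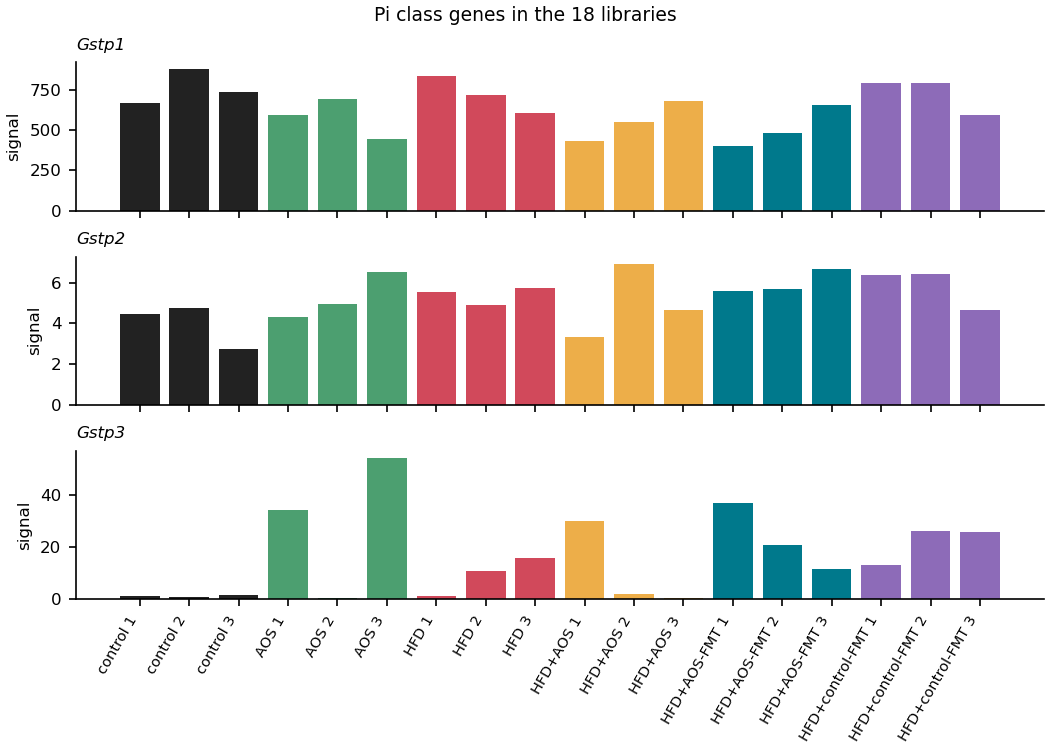
Deposited signal (y axis, from 0, own scale for each gene) of the pi class genes Gstp1, Gstp2 and Gstp3 in the 18 libraries (x axis, bars coloured by group). Gstp3 is at 2.15 or below in 7 libraries and at 10.7 to 54.5 in the other 11, while Gstp1 stays between 405 and 880.

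Sult1d1, which sulfates catecholamines and other small phenols, fell in HFD+AOS-FMT relative to control. It was at 328, 272 and 368 in control, 287, 260 and 257 in AOS, and 265, 244 and 217 in HFD. It was at 257, 266 and 283 in HFD+AOS, 228, 250 and 226 in HFD+AOS-FMT, and 234, 273 and 235 in HFD+control-FMT. The control libraries lay above all HFD+AOS-FMT and HFD libraries and overlapped with AOS, HFD+AOS and HFD+control-FMT.

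The Sult1d1 difference between HFD+AOS-FMT and control was -0.45 (SE 0.10, 95% interval -0.67 to -0.23, limma adjusted p = 0.0377), lower in 3 of 3 libraries. It kept its direction but not its call without control replicate 3 (-0.35, adjusted p = 0.0592), without control replicate 1 (-0.43) and without any 1 of the HFD+AOS-FMT replicates (-0.43, -0.49 and -0.42). With the term for libraries that hold germ cell transcripts it was -0.22, not called. The call was also lost with the replicate number as a block, with libraries weighted by quality, and with only HFD+AOS-FMT and control in the fit. For HFD against control the difference was -0.41 (SE 0.10, adjusted p = 0.198).

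Sult1a1 was at 14.5, 11.6 and 29.1 in control, 10.6, 10.4 and 9.98 in AOS, and 8.18, 8.81 and 9.58 in HFD. The control libraries lay above both groups. The difference was -0.87 for HFD (SE 0.22, limma adjusted p = 0.198) and -0.67 for AOS (SE 0.22, adjusted p = 0.345), and -0.50 and -0.30 without control replicate 3. Both comparisons use the same control libraries, all of which hold germ cell transcripts.

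The upstream sequences of the 3 called members are shown because their values carry the calls above. Each is the 150 bases from 170 to 21 before the RefSeq start (GRCm38.p6), 5′ to 3′ on the gene's strand. Capitals mark TGACNNNGC on either strand (the core of the antioxidant response element), which is in the Gsta3 sequence alone of the 3.
Ugt1a7c (chr1:88094831-88094980, plus strand): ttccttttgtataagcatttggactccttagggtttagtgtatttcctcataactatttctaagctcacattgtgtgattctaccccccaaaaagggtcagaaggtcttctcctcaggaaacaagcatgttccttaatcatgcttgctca
Gsta3 (chr1:21240415-21240564, plus strand): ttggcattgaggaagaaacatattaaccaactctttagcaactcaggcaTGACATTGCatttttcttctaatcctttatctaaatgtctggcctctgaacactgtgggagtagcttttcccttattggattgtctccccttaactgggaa
Sult1d1 (chr5:87569027-87569176, minus strand): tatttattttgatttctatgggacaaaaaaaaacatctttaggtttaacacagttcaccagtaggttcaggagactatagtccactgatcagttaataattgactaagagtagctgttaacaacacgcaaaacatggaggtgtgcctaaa

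In the 250 bases upstream, TGACNNNGC occurs in 3 of the 99 members that matched (3.03%, Gsta3, Gstm5 and Gstm7) against 11.5% of 27025 genes. The E-box CACGTG occurs in 1 member, Cyp2j6, against 6.86% of genes, and the D-box TTATGTAA in 1, the untested Ugt2b1, against 0.977%. These are matches of letters, not sites that were measured.

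The genes around these families were followed through a list of 75 genes in 6 groups, of which 74 were in the table and 63 were tested. They comprised partners of the P450 enzymes, other phase I enzymes, other conjugating enzymes, enzymes that supply the cosubstrates, genes that remove or return conjugates, and transcriptional regulators. For HFD+AOS against HFD 2 were called (3.17%, all genes 0.823%), the regulators Hlf and Ppara, both higher. In HFD+AOS-FMT 1 rose over HFD, Hlf (1.59%, all genes 0.175%), and 3 rose over control, Hlf, Ppara and Por (4.76%, all genes 2.32%). The F test called 2, Hlf and Ppara (3.17%, all genes 1.02%). In the other 6 comparisons limma called 0 of 63. Unadjusted p under 0.05 was found for 14 in HFD against control (22.2%, all genes 17.4%), 7 in AOS against control (11.1%, all genes 12.7%) and 6 in HFD+control-FMT against HFD (9.52%, all genes 4.5%). It was found for 7 in HFD+AOS-FMT against HFD+control-FMT (11.1%, all genes 7.02%), 8 in HFD+AOS against AOS (12.7%, all genes 11.1%) and 9 for AOS by diet (14.3%, all genes 12.4%). Without control replicate 3 these unadjusted counts were 7, 6, 9, 11, 15 and 9, in the same order. The matching shares of all genes without that library are not given here.

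By group, no gene was called in any comparison among the 13 tested other phase I enzymes, the 10 that supply cosubstrates or the 15 that remove or return conjugates. Without control replicate 3 the whole list gave 10 called genes for HFD+AOS against HFD, all higher, and 10 for HFD+AOS-FMT against HFD (9 higher). Among both were Abcc2, which pumps conjugates into bile and urine, and Fmo2, a flavin monooxygenase. The backgrounds without that library were 6.72% and 4.86%.

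Hlf, a clock-controlled PAR bZIP factor that binds D-boxes of detoxification genes, was at 21.2, 23.2 and 24.6 in control, 23.5, 25.7 and 22.1 in AOS, and 20.2, 23.7 and 21.8 in HFD. It was at 34.4, 35.2 and 32.2 in HFD+AOS, 31.0, 33.2 and 32.6 in HFD+AOS-FMT, and 28.7, 27.5 and 26.1 in HFD+control-FMT. The 3 groups that received AOS or FMT on HFD lay above the other 9 libraries without overlap. The difference from HFD was 0.61 for HFD+AOS (SE 0.07, limma adjusted p = 0.00233) and 0.54 for HFD+AOS-FMT (adjusted p = 0.0244), and 0.31 for HFD+control-FMT, which did not pass (adjusted p = 0.953). The HFD+AOS call held when any 1 library of either group was left out, with differences of 0.56 to 0.67. The HFD+AOS-FMT call over HFD was lost without HFD replicate 1 (0.49) and without HFD+AOS-FMT replicate 1, 2 or 3 (0.57, 0.52 and 0.53). With the germ cell term neither was called (0.62 and 0.54).

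Ppara, the receptor that drives fatty acid oxidation genes, was at 11.5, 10.2 and 11.3 in HFD, 20.8, 18.3 and 14.7 in HFD+AOS, 16.3, 18.04 and 16.95 in HFD+AOS-FMT, and 14.9, 14.9 and 13.1 in HFD+control-FMT. All 9 libraries with AOS or FMT on HFD lay above HFD. Ppara rose by 0.65 in HFD+AOS over HFD (SE 0.11, limma adjusted p = 0.0225) and by 0.64 in HFD+AOS-FMT over control (SE 0.11, adjusted p = 0.0127, and 0.73 without control replicate 3). The first call was lost without HFD replicate 1, 2 or 3 (0.68, 0.60 and 0.67) and without HFD+AOS replicate 1 or 2 (0.54 and 0.63), and with the germ cell term (0.62).

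Por, the electron donor of the P450 enzymes, was at 126, 147 and 152 in control and 221, 208 and 199 in HFD+AOS-FMT, without overlap, and rose by 0.56 (SE 0.10, limma adjusted p = 0.0141, and 0.62 without control replicate 3). Without HFD+AOS-FMT replicate 1 the call was lost (0.52). All 3 control libraries hold germ cell transcripts. With the term for them, the differences between HFD+AOS-FMT and control were 0.48 for Hlf, 0.59 for Ppara and 0.91 for Por, and none was called. With only these 2 groups in the fit they were 0.47, 0.64 and 0.56, and again none was called.

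Fmo2 was at 90.4, 83.0 and 108 in HFD and 134, 114 and 130 in HFD+AOS, groups that did not overlap. Its difference of 0.43 (SE 0.11, limma adjusted p = 0.0874) did not pass with all 18 libraries.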

How the data were processed

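Kidney RNA was extracted from frozen tissue with Trizol and a column kit and made into Illumina libraries from total RNA, per the labels' protocols. Bowtie 0.12.2 and the build mm10 appear in the submitters' processing notes. How reads were counted, on which gene models, and how values were scaled is not given in the sources used here. What the authors deposited is a normalized signal per gene and library in a unit that is not stated, so the depth is unknown and no counting interval can be given. Column sums varied with a CV of 3.5%, and with 0.815% after multiplying by transcript length (known for 97.3% of genes), so values were read as per length and depth. Of 19545 rows, 26 whose symbols had become dates and 1 repeated symbol were left out, and 17.3% of values are 0.

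A linear model of log2(signal + 1) over the 6 groups was fitted with limma 3.58.1 in R 4.3.3 (trend and robust variance, 12 residual degrees of freedom) on genes reaching 1 in at least 3 libraries. P-values were two-sided and adjusted by Benjamini-Hochberg over 12030 genes. With 3 libraries against 3, an exact permutation test of a single gene cannot go below 0.1, so none was run. The fit was tested on simulated data. Sequence sharing was counted in 50-base windows of GENCODE M21 transcripts, and promoters came from RefSeq GRCm38.p6, where 99 members matched.

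Members and lists were chosen with earlier results of these data known. Named genes were the 4 highest members of each family, the called members, the 2 with the smallest p in each comparison, members over 5 times their median in 1 library, and listed genes that were called or led the F test. Genes named as neighbours, relatives or examples (Ugt1a9, Ugt1a10, Ugt1a6a, Ugt1a6b, Cyp2a5, Gstp2, Gstp3, Abcc2) were chosen after their values were seen. Alternatives were another pseudocount, no filter, quantile normalization, plain eBayes, array weights, a replicate block, only the groups compared and leaving out each library. The planned germ cell term could not be run, since its list was above its limit in every library, and a term from Prm1, Prm2, Tnp1 and Tnp2 was chosen after seeing the data. Some listed genes are not reported here.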

Additional observations from a re-analysis of the deposited data

How the results depend on the processing

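Among the alternative values of named log2 differences, 245 kept direction and call, 10 gained the call, 19 lost it and none changed sign. With the main settings only 3 of the 18 named differences were called. They were Ugt1a7c for HFD+AOS against HFD, and Gsta3 and Sult1d1 for HFD+AOS-FMT against control. All 19 losses fell on these 3, and most of the 245 were uncalled differences that stayed uncalled. The number of called members moved most for HFD+AOS against HFD (4 with array weights, 4 with only the groups compared, 0 to 8 when 1 library was left out), HFD+AOS-FMT against HFD (4 with array weights, 0 to 3), HFD+AOS against AOS (1 with array weights, 0 to 1), HFD against control (0 to 3), HFD+AOS-FMT against control (0 with only the groups compared, 0 with the germ cell term, 0 to 5) and the F test (0 with plain eBayes, 7 with array weights, 0 with the germ cell term, 0 to 4). The germ cell term was chosen after seeing the data. The cause of these shifts was not tested.

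Without the filter on low values, so that rarely detected members enter, the family medians became -0.024 (Cyp2, HFD against control), 0.0022 (Cyp2, HFD+AOS against HFD), 0.062 (Cyp2, HFD+AOS-FMT against HFD), 0.0082 (Ugt, AOS against control), 0.019 (Ugt, HFD+AOS against HFD), 0.0048 (Ugt, HFD+AOS-FMT against HFD), 0.056 (Ugt, HFD+AOS-FMT against control) and -0.34 (Gst, HFD against control). Quantile normalization gave 0.23 for Ugt in HFD against control and 0.35 in AOS against control; it moved the median of all genes from -0.10 to 0.01 and from -0.09 to 0.01. Leaving out 1 library at a time gave ranges of -0.72 to -0.25 (Cyp2, HFD against control), -0.46 to 0.074 (Cyp2, HFD+AOS-FMT against control), 0.055 to 0.37 (Ugt, AOS against control), 0.030 to 0.21 (Ugt, HFD+AOS against HFD), 0.17 to 0.38 (Ugt, HFD+AOS-FMT against control), -0.84 to -0.20 (Gst, HFD against control), -0.52 to -0.028 (Gst, AOS against control), -0.65 to -0.063 (Gst, HFD+AOS-FMT against control) and -0.37 to 0.069 (Sult, AOS against control). In the comparisons with control, the end nearest or past 0 was the one without control replicate 3.

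With the replicate number as a block, 1 member (Gsta3) was called between HFD+AOS-FMT and control and 0 by the F test. No clear sign of pairing by number was seen: over 45 same-numbered pairs the correlation of deviations was -0.16 to 0.26 (median -0.02). Of 18 libraries, 5 correlated best with their own number. Deviations within so small a group depend on each other, so these values cannot exclude pairing. Depth is not known, so no limit from it can be stated.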

Other observations

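Several members near the bottom of the scale were highest in single libraries. Cyp3a13 peaked at 0.84 in HFD+AOS replicate 1, Cyp3a25 at 0.22 in HFD+AOS-FMT replicate 1 and Sult2a8 at 0.37 in HFD+control-FMT replicate 2. None of these genes reached 1 in any library. Of the 10 hepatocyte markers, 5 were highest in HFD+control-FMT replicate 2 and 2 in control replicate 3, and Alb was at 21.8 in the first of these. The part of such cells in these values was not tested.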
